A study of Homo sapiens with 9 samples.

Results

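The messenger RNAs (mRNAs) described here are those whose annotated RefSeq transcript, counted over its exons, is 15000 nt or longer. They were chosen by length, with earlier results of these data known. Coding (NM) transcripts on chromosomes 1 to 22 and X were taken, and the longest such transcript was kept per gene. ZBTB20 and genes of the ZNF series were left out by name. The choice gave 68 genes out of 18107 genes with a coding transcript and 26625 genes in all. The median gene of the 68 had a transcript of 16700 nt, and the longest were TTN with 109224 nt, MUC16 with 43816 nt and SYNE1 with 27748 nt. At the lower edge, MYCBP2 (15025 nt), CACNA1E (15087 nt) and HERC1 (15197 nt) were just inside. DNAH2 (14955 nt, 0 reads in every library), LRP1 (14905 nt, 13 to 56 reads) and ARFGEF3 (14882 nt, 20 to 154 reads) were just outside.

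The libraries were made by CLT-seq, a method that reverse-transcribes total RNA from an adaptor-flanked oligo(dT) primer, ligates a second adaptor and amplifies the product. The cells were HEK293T, a transformed line from human embryonic kidney, and A549, a lung carcinoma line of human origin; both were labelled wild type, no agent was named, and the media were DMEM for HEK293T and F-12K for A549. In HEK293T the unanchored primers T12, T18 and T30 ended in 12, 18 and 30 T, while the anchored primers T18V, T18VN and T18VNN carried 18 T and then 1 base other than T followed by 0, 1 or 2 arbitrary bases. In A549 the primer was T12. Gene counts were used from 7 of the 9 libraries, 1 for each primer in HEK293T and 1 for A549, so the spread given below is the spread between primers and not between cultures, and p-values measure only that spread.

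Very long mRNAs are of 2 kinds. Some encode giant proteins, such as the sarcomere spring titin, the linkers of the cytoskeleton, the histone methyltransferases of the KMT2 family and giant ubiquitin ligases, and are mostly coding sequence. Others encode proteins of ordinary size and owe their length to a very long 3′ untranslated region (UTR). An oligo(dT) primer pairs with the poly(A) tail, and it can also pair with a run of A inside a transcript; the anchor base is meant to place the primer at the border between the transcript body and the tail.

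By coding share, 54 of the 68 mRNAs were mostly coding and 14 were mostly untranslated. The mostly untranslated mRNAs were AAK1, BRWD1, CACNA1E, DGKH, GUCY1A2, HIPK2, KSR2, LPP, MUC19, ONECUT2, OPRM1, QKI, SH3TC2 and TNRC6B. For the 9 of the 68 without a matched reference transcript the coding share rests on the longest coding sequence annotated for the gene, which can come from another transcript. MUC19, a gene of a large mucin, is among them with a coding sequence of 1055 nt, so its place is uncertain; it had 0 reads in every library. LPP had 10.1% coding sequence and a 3′ UTR of 16192 nt, ONECUT2 had 9.40% and 14574 nt, and TNRC6B had 30.1% and 12566 nt. TTN, in contrast, was 98.9% coding.

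A reference transcript (GENCODE release 29, GRCh38) was found for 59 of the 68 mRNAs, and runs of A were searched in it on the sense strand only, leaving out the last 50 bases. A run of at least 12 A was present in 16 of the 59 (27.1%), against 37.5% of mRNAs of 10 to 15 kb and 9.79% of all other mRNA genes. A run of at least 18 A was present in 2 of the 59 (3.39%), LPP and ANK3, against 13.6% and 3.14%. Per 100 kb of transcript the very long mRNAs held 2.42 runs of at least 12 A, those of 10 to 15 kb 4.80 and all other mRNA genes 3.53. The windows of 30 bases below hold the longest run of A of 6 members, with the run in capitals. They are written 5′ to 3′ along the transcript, from GRCh38. LPP (chr3:188883729-188883758, plus strand), ANK3 (chr10:60027282-60027311, minus), ZFHX3 (chr16:72787033-72787062, minus) and TNRC6B (chr22:40335471-40335500, plus) are shown for their long runs, all in the 3′ UTR, whichever way they stood in the comparison of primers. VPS13D (chr1:12509886-12509915, plus, 3′ UTR) and AHNAK (chr11:62519288-62519317, minus, coding) are shown as members without a run of 12 A.
LPP: tctcAAAAAAAAAAAAAAAAAAAAAAggtt
ANK3: ttttAAAAAAAAAAAAAAAAAAAAActttc
ZFHX3: aaaaacAAAAAAAAAAAAAAAAAgaaaaaa
TNRC6B: ggatttcAAAAAAAAAAAAAAAAgtatcaa
VPS13D: attgagaaggAAAAAAAAAgtcccattgaa
AHNAK: aagattaaggccAAAAAAcagggatttgac
The longest run had 22 A in LPP, 21 in ANK3, 17 in ZFHX3, 16 in TNRC6B, 9 in VPS13D and 6 in AHNAK. LPP held 5 runs of at least 12 A, ZFHX3 4 and TNRC6B 3. A run is a description of these letters and not a shown priming site.

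Depth was 7491993 to 25578543 reads per library, of which 1498178 (A549) to 5200529 (HEK293T T18) were on genes. Reads on genes were 11.7% to 20.3% of the library total with the unanchored primers in HEK293T, 27.7% to 37.5% with the anchored ones and 13.5% in A549. Levels are given as CPM, read counts scaled to the same number of reads on genes in each library. A floor of 3 reads corresponded to 0.577 to 2.00 CPM. Coverage of transcript bodies was 59.2% to 64.7% in the last 20 of 100 percentiles in T12, T18, T30 and T18V, but 39.9% in T18VNN, which also had 33.7% in the first 20. A549 markers summed to 14422 CPM in A549 against 10.3 to 27.1 CPM in HEK293T, with 6 of 8 higher and SFTPB and SFTPC at 0 reads in all 7 libraries; 6 of 6 HEK293T markers were lower in A549, at 25.4 against 1320 to 2126 CPM. How a read in the overlap of several genes was counted and whether strand was used are not given in the sources used here, so sense and antisense reads cannot be told apart. In 25 of the 68 the gene's span overlapped another gene.

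Of the 68 mRNAs, 57 had at least 3 reads in at least 1 library and 35 had at least 3 in all 7. ABCA13, CACNA1E, FSIP2, HYDIN, MUC12, MUC19, MUC4, PKHD1 and RYR1 had 0 reads in every library. FCGBP, DNAH5 and MUC16 had 0 reads in the 6 HEK293T libraries and 6, 8 and 9 reads in A549. The number with at least 3 reads was 40 in T12, 43 in T18, 40 in T30, 43 in T18V, 43 in T18VN, 47 in T18VNN and 49 in A549. The absence of reads limits the level at this depth and does not show that a gene is silent. In bulk RNA, fewer cells with a transcript and less of it per cell cannot be told apart.

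A few members held most of the reads. In HEK293T the top 3 members held 36.8% of all reads on very long mRNAs, the top 5 held 46.5% and the top 10 held 66.9%. Per transcript length and library total (FPKM), HIPK2, a nuclear kinase that phosphorylates p53, was highest at 4.35 ± 1.71 (SD, n = 6 primers). MACF1, a linker of actin and microtubules, followed at 3.62 ± 1.56 FPKM. TNRC6B, a partner of Argonaute proteins in microRNA silencing, had 3.42 ± 1.57 FPKM. The spreads of these 3 overlapped. All members share the same 6 libraries, so overlapping spreads do not show whether members differ. VPS13D, a lipid transfer protein, had 1.94 ± 1.40 FPKM and the ubiquitin ligase MYCBP2 had 1.54 ± 0.547 FPKM, also with overlapping spreads. TTN, by far the longest, had 0.0657 ± 0.0388 FPKM and a mean of 27.9 CPM. Coverage lay mostly in the last percentiles of transcripts with T12, T18, T30 and T18V, so division by length can lower the FPKM of the longest members. In A549, with 1 library made with T12, LPP was highest at 7.78 FPKM, then HIPK2 at 2.41 and ZFHX3 at 1.98 FPKM. In the HEK293T T12 library MACF1 was highest at 2.43 FPKM, then HIPK2 at 2.17 and UBR4 at 1.57 FPKM, and LPP had 0.766 FPKM.

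**Figure D1:**
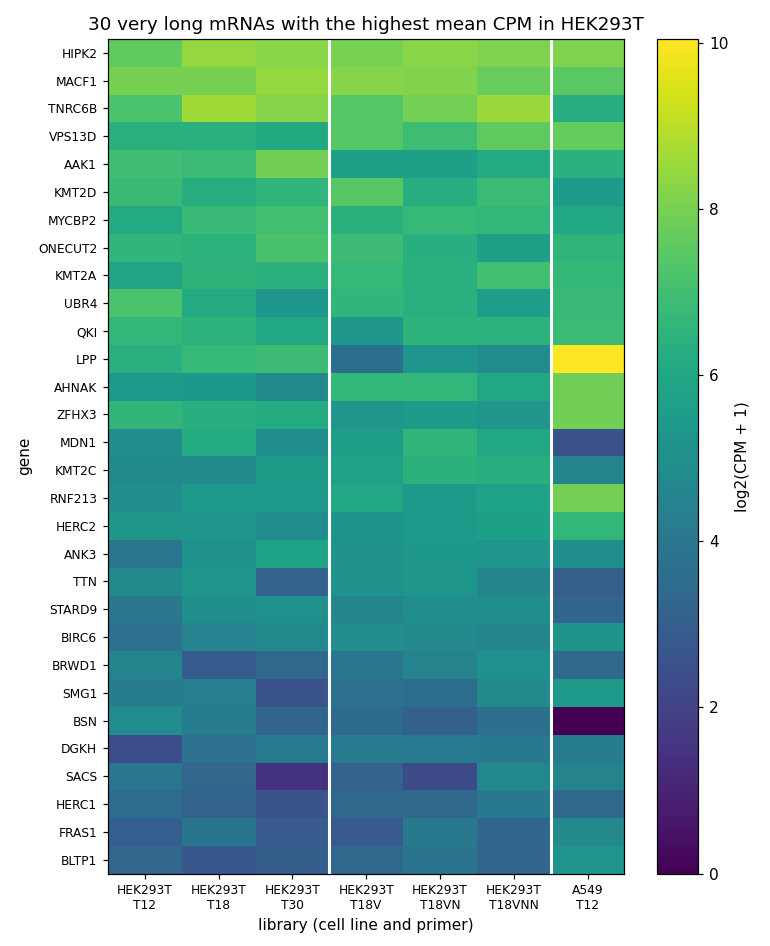
Level of the 30 very long mRNAs with the highest mean CPM in HEK293T (rows, genes; columns, libraries by cell line and primer; colour, log2(CPM + 1)); white lines part unanchored, anchored and A549 libraries. LPP runs from 11.4 CPM in T18V to 1056 CPM in A549, and HIPK2 stays between 191 and 347 CPM in HEK293T.

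The first comparison asked whether the very long mRNAs take a different share of reads with anchored than with unanchored primers. They held 0.193%, 0.239% and 0.239% of the reads on genes with T12, T18 and T30, and 0.219%, 0.226% and 0.239% with T18V, T18VN and T18VNN. The means were 0.224% ± 0.027 and 0.228% ± 0.010 (SD, n = 3 primers each), a difference of 0.004 percentage points, smaller than the spread, and the classes overlapped. The 95% Wilson interval of a single share, which covers counting error only, was 0.189% to 0.198% in T12. Split by kind, the mostly coding mRNAs held 0.116%, 0.122% and 0.120% with the unanchored primers and 0.151%, 0.142% and 0.146% with the anchored ones. Their means were 0.119% ± 0.003 and 0.146% ± 0.005, and the 3 anchored libraries were all above the 3 unanchored ones. The mostly untranslated ones held 0.077%, 0.117% and 0.120% against 0.068%, 0.085% and 0.094%, a difference of -0.023 percentage points between overlapping classes. No test was made of these sums. For mRNAs of 10 to 15 kb the shares were 1.59%, 1.86% and 2.33% against 1.56%, 1.49% and 1.54%, a difference of -0.396 percentage points.

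As a share of the library total the very long mRNAs were separated between the primer classes, on a scale that also holds the difference in reads on genes given above. They held 0.033%, 0.049% and 0.028% of all reads with T12, T18 and T30 and 0.082%, 0.064% and 0.066% with T18V, T18VN and T18VNN, and the classes did not overlap on that scale.

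**Figure D2:**
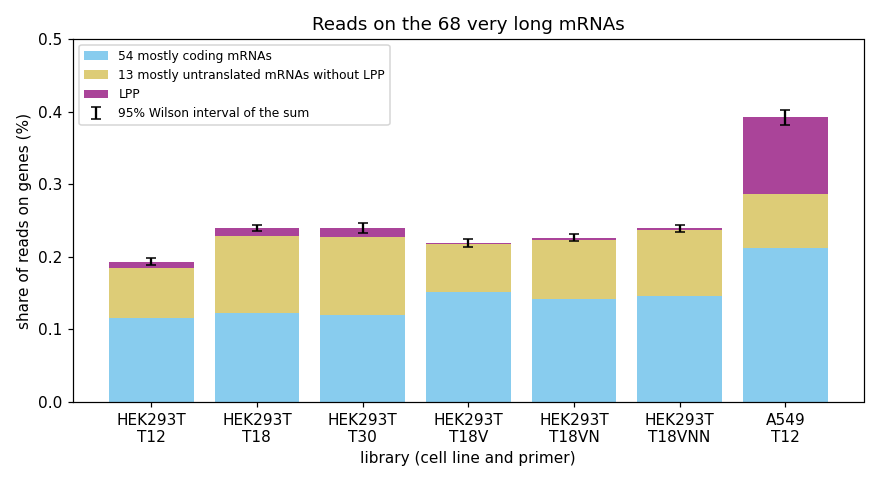
Share of the reads on genes (%, vertical axis) held by the 68 very long mRNAs in each of 7 libraries, split into mostly coding mRNAs, mostly untranslated mRNAs without LPP, and LPP; error bars are 95% Wilson intervals of the sum and cover counting error only. The sum lies between 0.193% and 0.239% in HEK293T and at 0.392% in A549, of which 0.286% is left without LPP.

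Gene by gene, edgeR's quasi-likelihood test tested 37 of the 68 mRNAs between the 3 anchored and the 3 unanchored libraries, and 31 had too few reads to enter. After Benjamini-Hochberg adjustment over all 10885 genes tested, 1 of the 37 passed an adjusted p of 0.05, against 1.35% of all genes tested; it was LPP, which was lower (background 0.57% lower and 0.781% higher). At an unadjusted p under 0.05 there were 7 of the 37, 4 higher and 3 lower, against 15.6% of all genes. In 10 of the 37 the 3 libraries of a class all lay above the other 3 (7 higher and 3 lower with the anchor), 27% against 23.6% of all genes (16.8% higher and 6.8% lower). The median log2 fold change was 0.21 over the 37 and -0.00 over all genes tested. It was 0.21 over the 29 mostly coding mRNAs tested (20 positive, 9 negative) and -0.33 over the 8 mostly untranslated ones (2 positive, 6 negative). These counts and medians describe members that passed the filter on low counts only.

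LPP encodes a LIM-domain protein of focal adhesions and lies at chr3:187930721-188608460 (hg19, plus strand). It had 81.1, 106 and 118 CPM with T12, T18 and T30 and 11.4, 38.2 and 28.1 CPM with T18V, T18VN and T18VNN. All 3 anchored libraries were low and the classes did not overlap. It fell by 2.15 on the log2 scale (SE 0.44, adjusted p = 0.042 by edgeR with Benjamini-Hochberg adjustment). The call was kept without T12 (adjusted p = 0.0457) and lost when T18, T30, T18V, T18VN or T18VNN was left out (adjusted p = 0.0547 to 0.145), with the fold change between -2.54 and -1.83 throughout. Its overlapping genes LPP-AS1 and MIR28 had 0 reads in all 7 libraries.

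Another 2 members were separated in the same direction but did not pass. AAK1 (chr2:69685127-69870977, hg19, minus strand), a kinase of clathrin-mediated endocytosis, had 123, 113 and 242 CPM unanchored and 49.8, 51.1 and 70.3 CPM anchored. Its log2 fold change was -1.67 (SE 0.39, edgeR adjusted p = 0.060). ZFHX3 (chr16:72816784-73082274, hg19, minus strand), a homeobox transcription factor, had 97.4, 78.8 and 72.2 CPM unanchored and 37.7, 44.4 and 37 CPM anchored. Its log2 fold change was -1.23 (SE 0.32, edgeR adjusted p = 0.0842). DESeq2 called LPP, AAK1 and ZFHX3, against 6.99% of the 8539 genes it gave an adjusted p. Without a filter on low counts edgeR called LPP and AAK1, against 3.37% of 16404 genes. AAK1 had no reference transcript here, so its runs of A were not counted. In HEK293T its overlapping gene ANXA4 had 0 to 17 reads.

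Among members whose levels were separated in the other direction, none passed the adjusted threshold. AHNAK, a giant scaffold protein under the plasma membrane, had 41.6, 40.4 and 26.6 CPM unanchored and 98.9, 98.6 and 62 CPM anchored (log2 fold change 1.09, SE 0.35, edgeR adjusted p = 0.161). VPS13D had 82.1, 82.9 and 67.2 CPM unanchored and 170, 121 and 194 CPM anchored (log2 fold change 0.89, SE 0.31, edgeR adjusted p = 0.190). The histone H3 lysine methyltransferase KMT2C had means of 31.9 ± 10.3 and 73.7 ± 18.3 CPM (SD, n = 3 primers; edgeR adjusted p = 0.214). LRP2, the endocytic receptor megalin, had 3.06, 3.65 and 1.35 CPM unanchored and 9.61, 6.25 and 19.5 CPM anchored (log2 fold change 1.92, edgeR adjusted p = 0.252). DST, RNF213 and SYNE2 were the other tested members whose 3 anchored libraries were all higher, with edgeR adjusted p-values of 0.416, 0.714 and 0.513. KALRN and RYR2, which had too few reads to be tested, were also separated in this direction: KALRN had 0.306 to 0.769 CPM unanchored and 2.5 to 9.6 CPM anchored, and RYR2 had 0 to 0.306 and 1.42 to 3.35 CPM. KMT2C, SYNE2 and KALRN are named here because of that separation and after their values were seen.

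**Figure D3:**
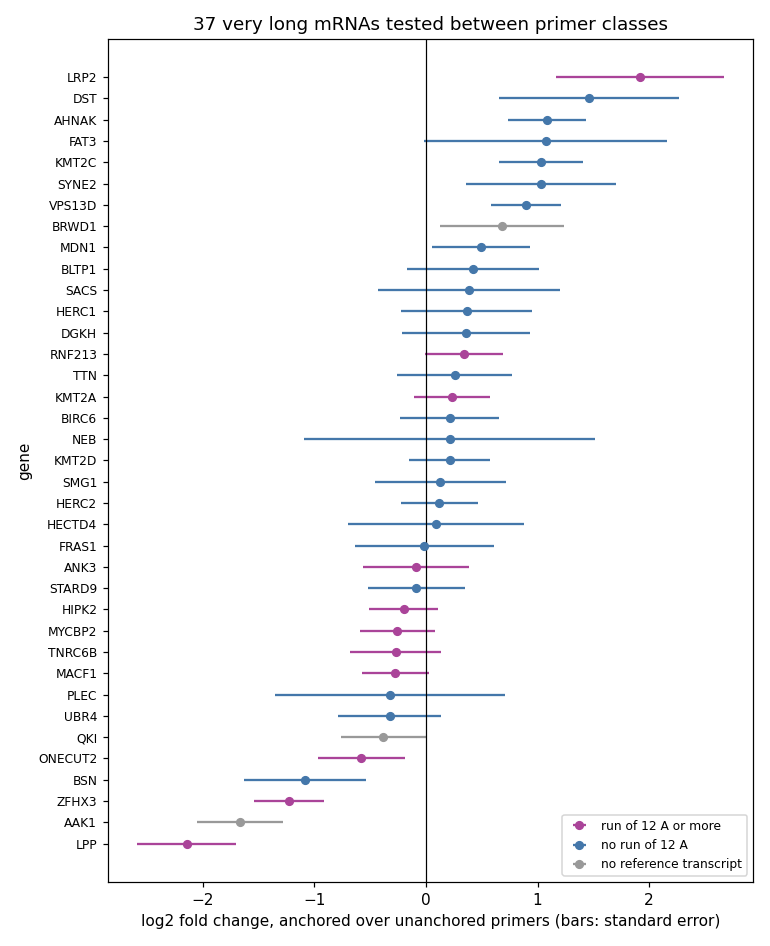
Log2 fold change of anchored over unanchored HEK293T libraries (horizontal axis; bars, standard error) for the 37 very long mRNAs tested, coloured by whether the reference transcript holds a run of at least 12 A. LPP, AAK1 and ZFHX3 are the lowest, at -2.15, -1.67 and -1.23, and LRP2, which holds a run of 12 A, is the highest at 1.92.

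By their medians, members with runs of A lay lower in this comparison than members without. The 11 tested members with a run of at least 12 A had a median log2 fold change of -0.26 (3 positive, 8 negative), and the 23 without had 0.26 (18 positive, 5 negative); the remaining 3 had no reference transcript. The 5 tested members with at least 2 such runs, which are LPP, ZFHX3, TNRC6B, ONECUT2 and KMT2A, had a median of -0.58, with KMT2A at 0.23. ANK3, with a run of 21 A, had a log2 fold change of -0.09 (SE 0.48). LRP2, with 1 run of 12 A, had the highest log2 fold change of all members tested, 1.92 (SE 0.76). RNF213, with a run of 14 A, had 0.34 (SE 0.35), and both were separated with the anchored libraries higher. Outside the very long mRNAs the median was -0.51 over 380 tested genes with a run of at least 18 A, of which 15 were called and all 15 were lower. It was -0.26 over 740 genes with 12 to 17 A (3 called higher, 9 lower) and 0.06 over 6937 genes with no run of 12 A (68 called higher, 15 lower). The part of the runs in LPP's difference was not tested.

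By role, the chromatin and transcription members had 6 of 6 tested and 0 called. KMT2D had 107, 76.5 and 96.6 CPM unanchored and 173, 75.9 and 116 CPM anchored, and KMT2A had 57, 92.7 and 84.8 against 104, 81.5 and 127 CPM; both are histone H3 lysine 4 methyltransferases. ONECUT2, a transcription factor, had 96.5, 88.3 and 140 against 119, 77.2 and 49.5 CPM. In each of these the classes overlapped. Among the 7 ubiquitin ligases and chaperones, all tested and 0 called, UBR4, a ligase of the N-degron pathway, had 144, 71 and 37.9 against 96.4, 81 and 47.5 CPM. MYCBP2 had 70.4, 110 and 126 against 86.5, 105 and 99.5 CPM. The 11 cytoskeletal members had 7 tested and 0 called; MACF1 had 249, 249 and 348 against 301, 281 and 210 CPM. Of the 5 members of vesicle traffic, lipid transfer and synapse 4 were tested, with 0 called.

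The members of muscle and cell surface had few reads. TTN was found in every library, at 26, 37.1 and 8.12 CPM unanchored and 33.4, 39.1 and 23.6 CPM anchored, and its antisense partner TTN-AS1 had 0 to 22 reads beside 11 to 193 on TTN. NEB, the sarcomere protein nebulin, had 0 to 8.65 CPM in HEK293T, and of the 6 muscle members only these 2 were tested. RYR2, a calcium release channel, had at most 3.35 CPM. Of the 15 cell surface and matrix members 3 were tested, FRAS1, LRP2 and FAT3, and 4 had 0 reads everywhere. FRAS1, an extracellular matrix protein, had 6.05 to 15.8 CPM in HEK293T, and LRP1B, a lipoprotein receptor of the LRP family, had 0 to 3.91 CPM. MDN1, an ATPase of ribosome assembly, had 29.1, 70.8 and 29.3 CPM unanchored and 47, 96.4 and 62.8 CPM anchored (log2 fold change 0.50, SE 0.44, edgeR adjusted p = 0.660).

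Each of the other HEK293T primers was also set against T12, with 1 library each and no test. A change of at least 2-fold, among genes reaching 20 reads in 1 of both libraries, was seen in 12 of 39 members with T18 (30.8%, background 29.1%) and in 13 of 32 with T30 (40.6%, background 36.9%). It was seen in 16 of 35 with T18V (45.7%, background 40%), 19 of 39 with T18VN (48.7%, background 36.9%) and 19 of 37 with T18VNN (51.4%, background 39.1%). These 5 comparisons share the T12 library.

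The second comparison was between the cell lines, A549 against HEK293T, both with T12. With 1 library each (replicate 1 of HEK293T and replicate 2 of A549) there was no replicate check and no test, and cell line and medium cannot be told apart. The very long mRNAs held 0.392% of the reads on genes in A549 (95% Wilson interval 0.382% to 0.402%) against 0.193% in HEK293T T12, 2.03-fold more, and above all 6 HEK293T libraries. Without LPP, an alternative chosen after seeing the data, the shares were 0.286% and 0.185%, 1.55-fold. Over the 43 members that overlap no other gene, which leave out LPP and were set apart here after seeing the data, they were 0.185% and 0.139%, 1.34-fold. Both kinds of mRNA were higher: the mostly coding ones held 0.212% against 0.116% and the mostly untranslated ones 0.180% against 0.077%. For mRNAs of 10 to 15 kb the shares were 2.84% and 1.59%, 1.78-fold, and for those of 5 to 10 kb 17.3% and 15.7%. As a share of the library total the very long mRNAs held 0.053% in A549. This was above HEK293T with T12 (0.033%), T18 (0.049%) and T30 (0.028%), and below the 3 anchored libraries (0.064% to 0.082%).

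Of 38 members that reached 20 reads in 1 of the 2 libraries, 24 differed at least 2-fold on the log2(CPM + 1) scale (63.2%), against 60.2% of 10144 genes counted the same way. They were split into 18 higher in A549 (47.4%, background 31%) and 6 lower (15.8%, background 29.2%). The filter bears on these counts: 23 of the 38 reached 20 reads in both libraries (11 higher, 1 lower), 7 in A549 alone (7 higher) and 8 in HEK293T T12 alone (5 lower). All genes were not split in this way, so the counts within these subsets have no background. The median log2 ratio was 0.69 over the 38 members and 0.02 over all genes. With TMM scaling all genes moved to a median of -0.20 and the members to 0.47, with 16 higher and 7 lower. The A549 level lay outside the range of all 6 HEK293T libraries and at least 2-fold from T12 in 21 of the 38, 17 higher and 4 lower. The background was 48.6% of the 10144 genes, with 2683 genes higher and 2243 lower.

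**Figure D4:**
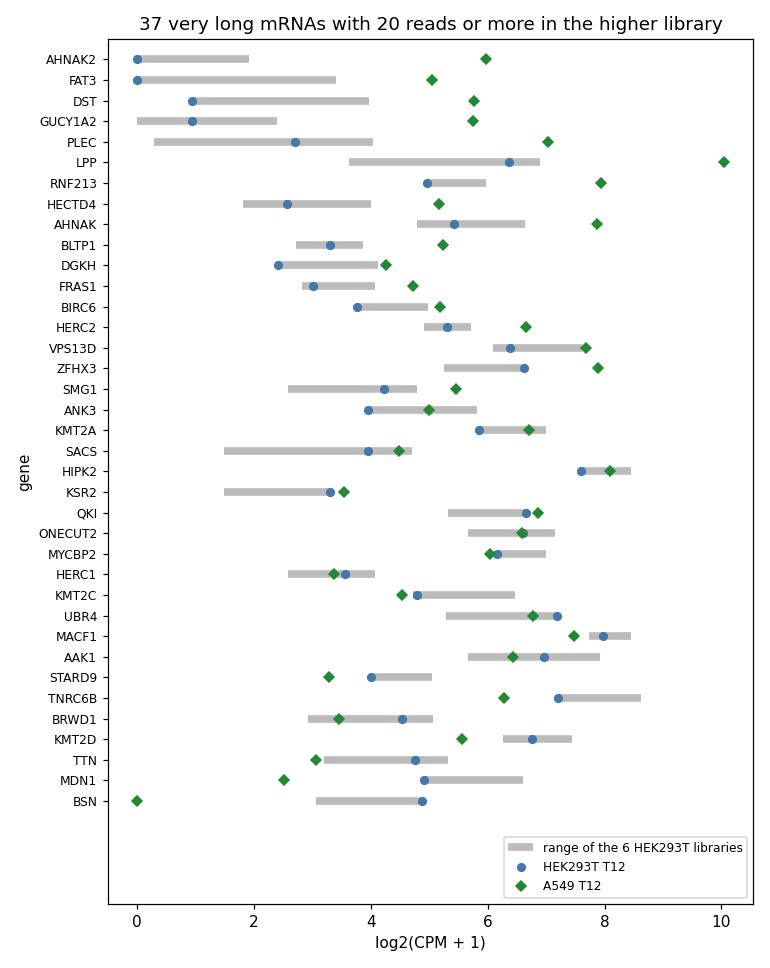
Level of 37 of the 38 very long mRNAs that reached 20 reads in either T12 library, as log2(CPM + 1) on the horizontal axis; grey bars span the 6 HEK293T libraries, circles are HEK293T T12 and diamonds A549 T12 (1 library each). AHNAK2, FAT3, DST and GUCY1A2 are at the top with A549 above the HEK293T range, and BSN, MDN1 and TTN are at the bottom. AHNAK2, FAT3, DST and GUCY1A2 reached 20 reads in A549 alone, and BSN, MDN1 and TTN in HEK293T T12 alone. A 2-fold call could thus only be higher for the former and lower for the latter.

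Of the 7 cytoskeletal linkers and scaffolds that reached 20 reads in either library, 5 were at least 2-fold higher in A549 and 0 lower. Among all genes 31% were higher. AHNAK2, DST and PLEC reached 20 reads in A549 alone, so their direction was set by the filter. Of the 3 that passed in both libraries, AHNAK and ANK3 were higher, and of these only AHNAK lay above every HEK293T library. ANK3, at 30.7 against 14.4 CPM (2.13-fold), lay inside the HEK293T range of 14.4 to 55.5 CPM. PLEC, which encodes plectin, a linker of intermediate filaments, had 130 CPM in A549 against 5.51 CPM in HEK293T T12, a 23.6-fold difference (95% counting interval 14.6 to 40.7), with 0.223 to 15.3 CPM over the HEK293T libraries. AHNAK had 232 against 41.6 CPM, 5.58-fold, with at most 98.9 CPM in HEK293T. AHNAK2, related to AHNAK, had 92 reads (61.4 CPM) in A549. It had 0 in the T12 library of HEK293T, and taking the floor of 3 reads per library there it was at least 66.8-fold higher in A549, with at most 2.78 CPM in any HEK293T library. DST, encoding dystonin, a linker of the same family as MACF1, had 80 reads in A549 against 3 in HEK293T T12 (53.4 and 0.919 CPM), a ratio of 58.1 with a 95% counting interval of 19.2 to 288. The overlapping DST-AS1 had 20 reads in A549 against 1 in HEK293T T12. MACF1 itself had 177 against 249 CPM, lower than in any HEK293T library but by less than 2-fold.

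LPP, outside the role lists, had the highest level of all members in A549. It had 1056 CPM (1582 reads) against 81.1 CPM (265 reads), 13-fold (95% counting interval 11.4 to 14.9), and no HEK293T library was above 118 CPM. GUCY1A2, a subunit of soluble guanylate cyclase, had 79 reads in A549 against 3 in HEK293T T12 (52.7 and 0.919 CPM), a ratio of 57.4 with a 95% counting interval of 18.9 to 284. GUCY1A2 passed the filter on reads in A549 alone, so its direction was set by the filter. Among the 7 ubiquitin ligases and chaperones, 3 were higher and 0 lower, beside 31% and 29.2% of all genes. RNF213, a giant ligase of the AAA+ family, had 243 against 30.0 CPM, 8.10-fold, with at most 61.9 CPM in HEK293T; its overlapping RNF213-AS1 had 6 and 24 reads in the 2 libraries. HERC2, a HECT-type ligase, had 99.5 against 38.6 CPM, 2.58-fold, while UBR4 (108 against 144 CPM) and MYCBP2 (64.7 against 70.4 CPM) were within 2-fold.

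Of the cell surface members, FAT3, a giant cadherin, and FRAS1 reached 20 reads in either library, FAT3 through A549 alone. FAT3 had 48 reads (32 CPM) in A549 against 0 with the same primer in HEK293T, and was thus at least 34.9-fold higher in A549, with at most 9.61 CPM in HEK293T. FRAS1 had 25.4 against 7.04 CPM, 3.60-fold. LRP2, with 5 and 10 reads, had 3.34 against 3.06 CPM. Of the 4 members of vesicle traffic, lipid transfer and synapse 2 were higher and 1 lower, beside 31% and 29.2% of all genes. VPS13D had 205 against 82.1 CPM and BLTP1, a bridge-like lipid transfer protein, 36.7 against 8.88 CPM. BSN, the presynaptic scaffold bassoon, had 93 reads (28.5 CPM) in HEK293T T12 and 0 in A549, at least 14.2-fold lower in A549. It had 7.36 to 28.5 CPM over HEK293T. BSN reached 20 reads in HEK293T T12 alone, so a 2-fold call on it could only be lower. AAK1 had 85.4 against 123 CPM, but ANXA4, which overlaps it, had 488 reads in A549 against 4 in HEK293T T12, beside 128 and 403 on AAK1, and the part of those reads in the AAK1 count was not tested.

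Of the 6 chromatin members 1 was higher and 2 were lower, beside 31% and 29.2% of all genes. ZFHX3 had 236 CPM in A549, 2.43-fold above T12 and above all HEK293T libraries. KMT2D had 46.1 against 107 CPM, 2.32-fold lower and below all 6 HEK293T libraries (75.9 to 173 CPM), and BRWD1, a bromodomain protein, had 10.0 against 22 CPM, 2.2-fold lower, inside the HEK293T range (6.54 to 32.3 CPM). KMT2A (103 against 57 CPM) and ONECUT2 (95.4 against 96.5 CPM) were within 2-fold. MDN1 had 4.67 against 29.1 CPM, 6.23-fold lower and below all HEK293T libraries. TTN had 7.34 against 26 CPM, 3.55-fold lower, although T30 in HEK293T had 8.12 CPM. BRWD1, MDN1 and TTN passed the filter on reads in HEK293T T12 alone, so a 2-fold call on them could only be lower. TNRC6B had 76.1 CPM, 1.92-fold below T12 and lower than any HEK293T library (146 to 393 CPM). SMG1, a kinase of nonsense-mediated decay, had 42.7 against 17.8 CPM, 2.41-fold higher; SMG1, HERC2 and HYDIN have near-identical copies elsewhere in the genome, so their counts are uncertain.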

How the data were processed

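Reads were counted per RefSeq transcript by the authors, and the deposited counts are raw; the deposited FPM, a signal scaled to a library total, and FPKM follow from them. Coverage was deposited as a signal per percentile of the transcript body. The deposited transcript size is in bases, per the file headers. Per the submitters' processing notes, cutadapt 2.10, Trimmomatic 0.39, HISAT2 2.2.1 and GRCh37/hg19 were used; the counting tool and strand setting are not given in the sources used here. Of 61177 transcript entries, 98.3% matched a gene symbol. Other genes were represented by their most-read transcript. Library totals of 7491993 to 25578543 reads were recovered as count over FPM. Counts were tested with edgeR 4.0.16 (filterByExpr, TMM, quasi-likelihood, Benjamini-Hochberg adjustment over all genes) and, as an alternative, DESeq2 1.42.0; the test was tried on simulated data. CPM used reads on genes, and cell line ratios used a pseudocount of 1 CPM. Samples were grouped by their titles. Poly(T) length tables of 2 libraries and the T18VN coverage table were not used. The values of 1 member are not reported here; it is included in the counts and sums over members.

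Coding share came from GENCODE release 29 coding sequence, in place of RefSeq protein length, and was split at 50% into mostly coding and mostly untranslated. The members and lists were chosen with earlier results of these data known. Members named with values were those called, the 10 highest in HEK293T, up to 6 of the highest and of the lowest cell line ratios with at least 50 reads and outside the HEK293T range, the 5 most variable with at least 300 reads, the 3 shortest and 3 longest, and up to 4 per role. The alternatives tried were other normalisation, test, filter, transcript choice, length threshold, pseudocount, denominator and left-out libraries.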

Additional observations from a re-analysis of the deposited data

Results flagged for a closer look

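In 3 of 38 levels and summed shares of members examined over the 6 HEK293T libraries, 1 library lay far from the other 5; chance flags about 1 in 20, or 1.9 of 38. AHNAK2 had 2.78 CPM in T18VNN and at most 0.385 CPM elsewhere. SYNE1, a nuclear envelope linker, had 4.17 CPM in T18VNN and at most 1.42 CPM elsewhere, with 3 reads on the overlapping ESR1 in T18VNN. GUCY1A2 had 4.23 CPM in T18 and at most 0.919 CPM elsewhere. Each of these rests on 10 to 22 reads.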

How the results depend on the processing

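The count of very long mRNAs called between primer classes was 1; it was 3 with DESeq2 (AAK1, LPP, ZFHX3), 2 with no filter on low counts (AAK1, LPP), 0 among members overlapping no other gene, which leaves LPP out, and 0 to 1 when 1 library was left out. The difference in summed share, 0.004 percentage points, became 0.034 with the library total as denominator and -0.019 at 12 kb; it was -0.011 to 0.012 when 1 library was left out. The A549 count of 24 became 14 among the 24 members that overlap no other gene. The A549 minus HEK293T difference of 0.199 percentage points became 0.019 with the library total, 0.341 at 12 kb, 0.133 at 18 kb, 0.101 without LPP and 0.046 over members overlapping no other gene, the last 2 chosen after seeing the data. Where a value moved, the cause was not tested. Of 295 alternative values for 30 named members, 287 kept their side of the threshold, but LPP alone was called in the main setting. In 5 values LPP lost its call, and in 3 values a member gained one. In 11 members 18 values changed sign, all without a call. No paired analysis was possible because HEK293T T12 had counts only for replicate 1 and A549 T12 only for replicate 2, and the other primers carry no replicate number. Levels near 3 reads, 0.577 to 2.00 CPM, limit the rarer members.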
